A study of Rattus norvegicus with 12 samples.

Results

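The genes described here are 34 components, receptors and regulators of the complement system, chosen by gene symbol from the 30045 symbols of the deposited count table, and grouped by their place in the cascade. They were measured in lung after inhalation of crystalline nanocellulose (CNC), rod-like crystals prepared from plant cellulose. The 6 CNC rats breathed 20 mg/m3 of it in a whole-body chamber, 6 hours per day and 5 days per week, until 14 exposure days were reached, and the 6 air rats breathed air without it (0 mg/m3). All 12 were male inbred Fischer rats (F344/DuCrl), 3 months old when bought, with no genetic change and no other agent named in the labels. A piece of lung was taken 1 day after the last exposure and its polyadenylated RNA sequenced. Each library is the RNA of a single rat.

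Complement is a set of plasma and tissue proteins that tag particles and damaged cells for removal. The classical pathway starts when C1q binds a surface and activates the proteases C1r and C1s, the lectin pathway starts from ficolins and collectins with MASP proteases, and the alternative pathway runs by slow turnover of C3 with factors B and D. All lead to cleavage of C3 and C5, whose fragments attract leukocytes, and to assembly of the membrane attack complex. Most plasma complement is made by the liver, but lung epithelium, macrophages and fibroblasts also make parts of it.

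The libraries held between 9917387 and 14735245 counts in CNC and between 8693259 and 16603697 in air. The surfactant gene markers of alveolar type 2 cells summed to 31206 to 38254 CPM, counts scaled to a common library size, in CNC and 23526 to 30698 in air, which marks the tissue as lung. In other marker lists, 6 of 10 alveolar macrophage markers rose and 2 fell, 4 of 10 neutrophil markers rose and 1 fell, and 8 of 8 endothelial markers fell. Alveolar macrophage markers summed to 1285 to 1657 CPM in CNC and 748 to 880.0 CPM in air, with Marco listed at 0 in all libraries, and neutrophil markers summed to 434 to 694 CPM in CNC and 178 to 278 CPM in air. Most of the gap in neutrophil markers came from S100a9 (275 CPM in CNC and 73.2 in air on average) and Cd177 (119 in CNC and 17.0 in air), while Csf3r, Retnlg, Mmp8 and Fcgr3a were not called and Ngp fell, and the median log2 fold change of the list was 0.18. In the macrophage list most of the gap came from Chi3l1 (599 CPM in CNC and 167 in air on average) and Plet1 (350.0 in CNC and 180.0 in air). The macrophage markers that fell were Fabp4 and Car4 (log2 fold changes -0.46 and -0.32), and Mrc1 was not called. Monocyte and interstitial macrophage markers (8 of 10 in the table, 1 risen and 2 fallen) summed to 958 to 1088 CPM in CNC and 941 to 1170 CPM in air. Liver markers summed to 15.9 to 24.1 CPM in CNC and 21.2 to 32.6 CPM in air, where albumin (Alb) had 12 counts over the 6 CNC libraries and 15 over the 6 air libraries. This liver sum was nearly all Serpina1, at 18.1 CPM in CNC and 23.3 in air on average, the 1 of 9 liver markers that was tested. Air rats 4 and 5 stood apart in heart muscle markers, with sums of 476 and 357 CPM, where CNC rats ran from 31.3 to 148 CPM and the other air rats from 32.1 to 164 CPM. Without these 2 rats 18 complement genes were called higher and 2 lower. In whole tissue, a change in the number of cells that make an RNA and a change in RNA per cell cannot be told apart.

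Of the 34 complement genes 33 passed the filter on low counts, and 19 of these rose and 2 fell in CNC lungs (edgeR quasi-likelihood test, adjusted p under 0.05). Over all 15019 tested genes 24.6% were called, 13.2% as higher and 11.4% as lower. This balance turned with the scaling: 1981 genes were higher and 1710 lower with TMM scaling, 1803 and 1967 with upper-quartile scaling, and 1683 and 2151 with library size alone, where 18 complement genes were higher and 2 lower. The median log2 fold change was 0.24 over the complement genes and 0 over all tested genes. Of the complement genes 9 rose by at least 1.5-fold and none fell that far, where 2.84% of all genes rose and 0.772% fell by as much. In 10 complement genes every CNC rat lay above every air rat, and in 2 every CNC rat lay below, against 6.82% and 4.7% of all tested genes. Masp2, the lectin pathway protease that cleaves C4 and C2, was the gene under the filter, with 4 counts over the CNC libraries and 11 over the air libraries.

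**Figure D1:**
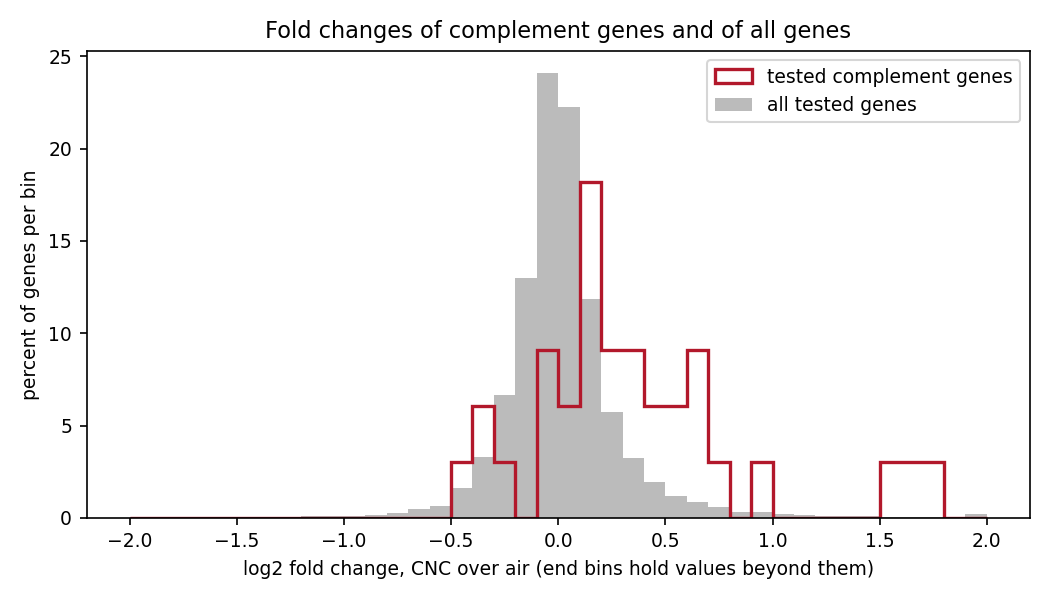
Share of genes (percent per bin, y axis) by log2 fold change of CNC over air (x axis), for the 33 tested complement genes (line) and all 15019 tested genes (grey). The complement genes sit further to the right, with a median of 0.24 against 0.

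By arm, C3 rose, as did 7 of 8 classical genes, 1 of 3 alternative genes, 2 of 3 terminal genes, 4 of 6 receptors and 4 of 9 regulators. None of 3 tested lectin genes was called higher, and 1 of them and 1 regulator fell. Complement counts took 0.717 ± 0.0416% of all counts in CNC lungs and 0.473 ± 0.0255% in air lungs (SD, n = 6 rats each). Without C3 the shares were 0.532 ± 0.0212% in CNC and 0.419 ± 0.0219% in air, and neither share overlapped between the groups.

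**Figure D2:**
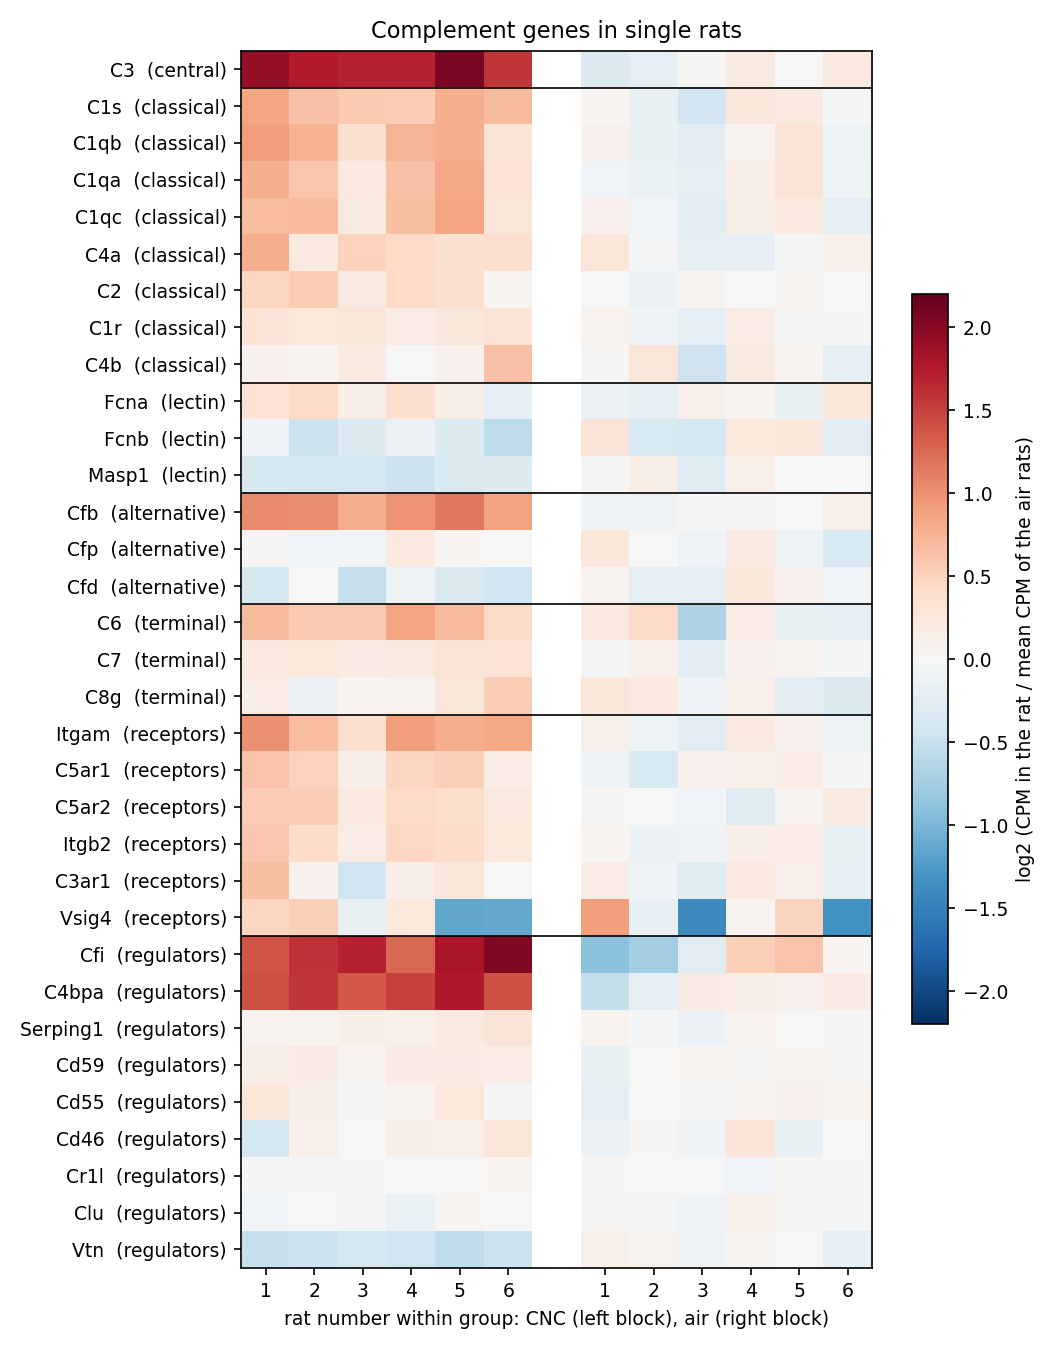
Log2 ratio of each rat's CPM to the mean CPM of the air rats (colour) for the 33 tested complement genes (rows, by arm), with the 6 CNC rats in the left block and the 6 air rats in the right. C3, Cfi and C4bpa are red in all 6 CNC rats, Vtn and Masp1 are blue in all 6, and Cr1l is nearly white in all 12 rats.

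To show the start regions of the genes with the largest changes, RefSeq promoters (build GRCr8, 250 bases before to 50 bases after the start site) are printed for the genes with an entry: the 3 that rose furthest and the 2 that fell furthest. C3 lies on the minus strand at chr9:2201290-2201589, Cfi on the plus strand at chr2:221063066-221063365 and C4bpa on the minus strand at chr13:44663422-44663721. The genes that fell are Vtn, on the plus strand at chr10:63892532-63892831, and Masp1, on the plus strand at chr11:90839472-90839771. Capitals mark letters that match a C/EBP-type motif (TTGCNNAA) or a STAT-type motif (TTCNNNGAA) on either strand, and none of the matches shown overlap another motif searched.
C3: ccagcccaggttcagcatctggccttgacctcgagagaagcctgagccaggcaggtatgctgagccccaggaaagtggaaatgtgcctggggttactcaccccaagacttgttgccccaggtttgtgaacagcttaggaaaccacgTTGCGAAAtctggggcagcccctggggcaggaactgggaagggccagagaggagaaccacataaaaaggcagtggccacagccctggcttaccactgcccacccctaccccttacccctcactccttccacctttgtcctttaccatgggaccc
Cfi: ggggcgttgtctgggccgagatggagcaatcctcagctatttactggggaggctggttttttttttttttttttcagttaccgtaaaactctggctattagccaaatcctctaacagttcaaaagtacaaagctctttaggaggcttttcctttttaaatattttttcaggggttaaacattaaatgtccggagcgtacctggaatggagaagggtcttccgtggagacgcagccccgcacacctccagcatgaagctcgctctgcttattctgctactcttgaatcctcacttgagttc
C4bpa: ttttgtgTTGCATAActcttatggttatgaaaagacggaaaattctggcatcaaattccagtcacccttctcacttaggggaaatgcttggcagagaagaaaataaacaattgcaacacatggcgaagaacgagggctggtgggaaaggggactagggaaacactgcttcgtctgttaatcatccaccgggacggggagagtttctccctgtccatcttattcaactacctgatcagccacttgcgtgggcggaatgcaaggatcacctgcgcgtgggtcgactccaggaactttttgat
Vtn: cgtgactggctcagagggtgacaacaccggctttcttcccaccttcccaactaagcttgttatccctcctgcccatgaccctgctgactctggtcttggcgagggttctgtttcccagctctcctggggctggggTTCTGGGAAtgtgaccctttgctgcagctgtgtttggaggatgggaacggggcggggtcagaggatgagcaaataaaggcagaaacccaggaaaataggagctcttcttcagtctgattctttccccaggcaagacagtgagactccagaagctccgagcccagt
Masp1: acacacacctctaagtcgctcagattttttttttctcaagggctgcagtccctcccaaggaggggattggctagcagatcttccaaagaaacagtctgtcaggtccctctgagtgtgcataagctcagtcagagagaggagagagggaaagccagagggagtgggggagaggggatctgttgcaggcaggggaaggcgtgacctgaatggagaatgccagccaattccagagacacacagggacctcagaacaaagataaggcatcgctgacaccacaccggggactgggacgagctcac
The capitals in C3 begin 104 bases before the start site and those in C4bpa 243 bases before it, both C/EBP-type, and those in Vtn begin 115 bases before it and are STAT-type. The windows of Cfi and Masp1 held none of the motifs searched. Among the 22 complement genes with a promoter entry, 6 held the C/EBP letters (27.3%), against 10.6% of all 33469 promoters. These were C3, C1r, C6, Itgam and C4bpa, which rose, and Fcnb, which was not called. Of all 33 tested complement genes, with or without a promoter entry, 19 rose, and the risen share among the 22 was not counted. STAT letters were in 5 of 22 (22.7%, against 8.87%), the 10-letter NF-kappaB motif in 1 (4.55%, against 7.51%), TATAAA in 3 (13.6%, against 14.2%) and the interferon response motif (GAAA, 2 free letters, GAAA) in 0 (against 3.92%). The STAT letters were in C1qa, C5ar2 and Itgam, which rose, in Vsig4, which was not called, and in Vtn, which fell. All these matches describe letters in a window and were not tested.

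C3, the protein on which all pathways converge, had the largest fold change of the 33 tested. It ran from 1610 through a median of 1779 to 2271 CPM in CNC rats, and from 440.0 through 543 to 629 CPM in air rats. The groups lay far apart, with no overlap, and the log2 fold change was 1.79 ± 0.10 (SE; edgeR adjusted p = 2.84e-08). C3 took 23.2 to 28.6% of all complement counts in CNC rats and 9.7 to 13.2% in air rats. Type 2 cell markers, one source of C3 in lung, rose for 8 of 10 markers, with the summed levels given above, and their part in the result was not tested.

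In the classical arm the genes of the recognition protein and its proteases all rose, by different amounts, and C4b was the member that was not called. The 3 chains of C1q, which assemble in equal numbers, had log2 fold changes of 0.59 ± 0.11 for C1qa, 0.67 ± 0.11 for C1qb and 0.58 ± 0.11 for C1qc (SE; edgeR adjusted p = 0.000899, 0.00054 and 0.00121). C1qa ran from 32.4 through 43 to 50 CPM in CNC rats and from 24.2 through 26.4 to 33.8 CPM in air rats. C1qb ran from 23.9 through 33.3 to 37.4 CPM in CNC rats and from 16.7 through 19.5 to 23.9 CPM in air rats. For each chain 5 of 6 CNC rats lay above all air rats.

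The share of each chain in the C1q counts overlapped between the groups. C1qa made up 37 ± 0.91% of C1q counts in CNC and 37.4 ± 1.27% in air, C1qb 27.6 ± 1.29% in CNC and 26.5 ± 0.795% in air, and C1qc 35.4 ± 1.14% in CNC and 36.1 ± 1.15% in air (SD, n = 6 rats each). CNC rats 3 and 6 had the lowest C1qa, C1qb and C1qc of the CNC rats, at 32.4 and 34.6 CPM for C1qa. The same rats had the lowest alveolar macrophage marker sums of the CNC rats, 1311 and 1285 CPM, where the other CNC rats ran from 1586 to 1657. CNC rats 3 and 6 were also the lowest CNC pair in neutrophil markers (434 and 531 CPM) and alveolar type 2 markers (32808 and 31206 CPM). In monocyte and interstitial macrophage markers, CNC rat 3 was the highest CNC rat at 1088 CPM, and CNC rat 6 had 982 CPM. Over the 19 risen genes, these rats were the lowest pair in 8. Among the 8 are the C1q chains, for which the rats were named, beside C2, Cfb, C5ar1, C5ar2 and Itgb2. Cfd, C3ar1 and Cd55, which were not called, had the same lowest pair. How often this pair is lowest over all tested genes was not counted, so the 8 cannot be read as particular to complement. Leaving out CNC rats 3 and 6, named here as the lowest for C1q, raises the C1q fold changes by construction. The log2 fold changes were then 0.72 for C1qa, 0.80 for C1qb and 0.72 for C1qc. Macrophages are a main source of C1q, and the part of the macrophage lists in the C1q result was not tested.

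C1s, the protease that cleaves C4 and C2, rose most in the classical arm. It ran from 93.8 through 101 to 116 CPM in CNC rats and from 47.5 through 63.9 to 75.4 CPM in air rats, with no overlap, a log2 fold change of 0.70 ± 0.09 (SE; edgeR adjusted p = 5.98e-05). C1r, which activates C1s and lies next to it in the gene order of GRCr8, rose by 0.25 ± 0.05 (SE; edgeR adjusted p = 0.00217). The number of C1s counts per C1r count ran from 0.441 to 0.530 in CNC rats and from 0.306 to 0.402 in air rats, a 1.37-fold difference that does not depend on scaling (2-sided exact permutation test, p = 0.00216, the smallest the test can give; 0.00606 adjusted over 14 such ratios).

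C2, which joins C4 in the classical C3 convertase, averaged 177 ± 21.5 CPM in CNC and 139 ± 6.72 CPM in air (SD, n = 6 rats each; log2 fold change 0.36, edgeR adjusted p = 0.0012). The C4 copies differed in their calls. C4a averaged 5.57 ± 0.817 CPM in CNC and 4.06 ± 0.525 CPM in air (SD, n = 6 rats each) and rose by 0.46 ± 0.12 (SE; edgeR adjusted p = 0.0121), a call that ended without air rats 4 and 5, where the log2 fold change was 0.41 ± 0.14 (SE; edgeR adjusted p = 0.0509). C4b averaged 91.5 ± 16.8 CPM in CNC and 79.5 ± 14.3 CPM in air (SD, n = 6 rats each) and was not called (log2 fold change 0.19 ± 0.12 SE, edgeR adjusted p = 0.285). The copies are near-identical and reads may be split between them. The C4a to C4b count ratio did not differ beyond its spread (0.0623 ± 0.0135 in CNC and 0.0524 ± 0.0110 in air, SD, n = 6 rats each; exact permutation p = 0.214, adjusted 0.333). With both counts added together the log2 fold change was 0.21 ± 0.12 (SE; edgeR adjusted p = 0.22).

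In the lectin arm Masp1, the gene of a protease that starts this pathway, fell in CNC lungs. Counts are per gene symbol and do not tell the transcripts of a gene apart. It ran from 51.9 through 56.3 to 58.2 CPM in CNC rats and from 59.0 through 72.9 to 78.5 CPM in air rats, so the groups did not overlap but nearly touched at air rat 3. The log2 fold change of Masp1 was -0.36 ± 0.06 (SE; edgeR adjusted p = 0.000315). Among fibroblast markers 6 of 10 fell and none rose, with sums of 2095 to 2350 CPM in CNC and 2429 to 3079 CPM in air. Their part in the Masp1 result was not tested.

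The ficolins, which recognise sugars on surfaces, were not called. Fcna, the ficolin of plasma and tissue macrophages in mouse, had a log2 fold change of 0.23 ± 0.10 (SE; edgeR adjusted p = 0.136), and Fcnb, the ficolin of myeloid cells in mouse, had -0.30 ± 0.13 (SE; edgeR adjusted p = 0.104). In the 12 fits that each left out 1 rat, edgeR adjusted p ran from 0.0332 to 0.267 for Fcna and from 0.0427 to 0.24 for Fcnb. Among these fits, Fcna was called higher only without CNC rat 6, its lowest CNC rat. Fcnb was called lower only without air rat 3, its lowest air rat. Leaving out such a rat enlarges the fold change by construction. Masp2, tested without the count filter, had edgeR adjusted p = 0.226.

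The alternative arm split by gene. Cfb, the factor that binds C3b and carries the protease of the alternative C3 convertase, ran from 1145 through 1325 to 1470 CPM in CNC rats and from 624 through 661 to 714 CPM in air rats, with no overlap. On the log2 scale Cfb changed by 0.99 ± 0.05 (SE; edgeR adjusted p = 2.84e-08). Cfb lies next to C2, its counterpart in the classical pathway, and the number of Cfb counts per C2 count ran from 6.63 to 8.36 in CNC rats and from 4.52 to 5.09 in air rats (2-sided exact permutation test, p = 0.00216, the smallest it can give; 0.00606 adjusted).

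Cfd and Cfp did not follow Cfb. Factor D, the protease that cleaves factor B and a known fat cell product, had a log2 fold change of -0.27 ± 0.11 for Cfd (SE; edgeR adjusted p = 0.096). In the fits that each left out 1 rat, edgeR adjusted p for Cfd ran from 0.0456 to 0.203. Among these fits, Cfd was called lower only without CNC rat 2, its highest CNC rat, whose removal enlarges the fold change by construction. Of 9 adipocyte markers 3 were tested, of which Cidea rose and Lipe fell, and the defining markers Adipoq, Plin1 and Lep each averaged below 1 CPM in both groups. The marker sum of 76.1 to 91.7 CPM in CNC and 105 to 132 CPM in air was nearly all Lipe, a lipase, which averaged 77.8 CPM in CNC and 113 CPM in air. Their part in the Cfd value was not tested. Cfp encodes properdin, which stabilises the alternative convertase, and averaged 29.9 ± 2.17 CPM in CNC and 29.3 ± 4.30 CPM in air (SD, n = 6 rats each). Its log2 fold change of 0.02 had a 95% interval of -0.16 to 0.20 (edgeR adjusted p = 0.894).

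**Figure D3:**
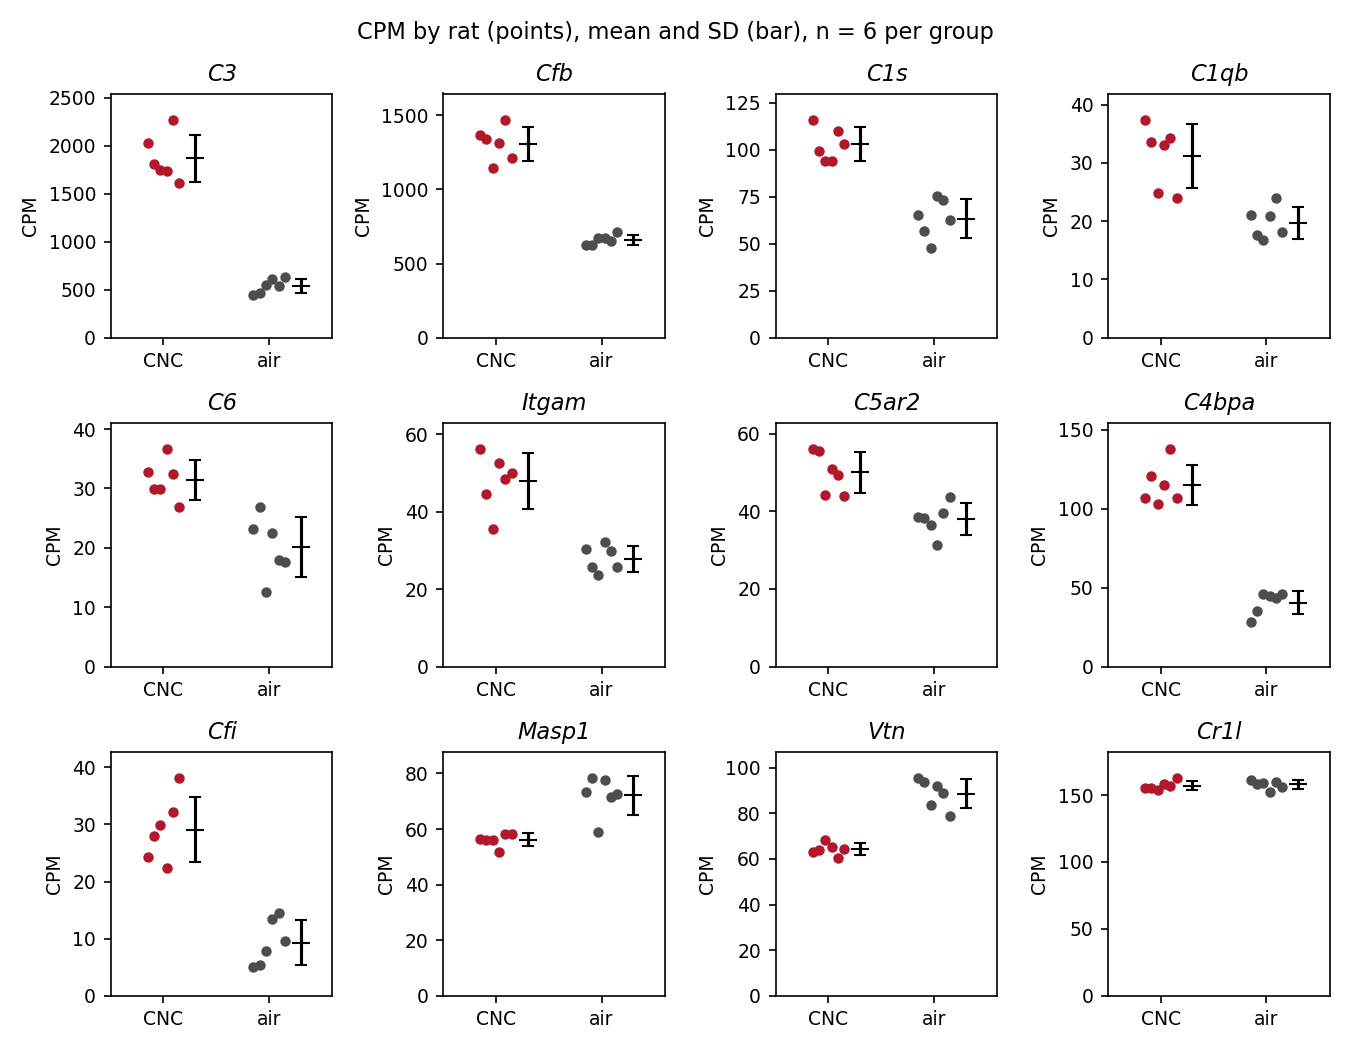
CPM by rat (points, CNC left and air right) with mean and SD (bars, n = 6 rats each) for 12 complement genes, each with its own y axis from 0. C3, Cfb, C4bpa and Cfi lie wholly above the air rats, Masp1 and Vtn wholly below, and Cr1l at 154 to 163 CPM in CNC and 152 to 161 CPM in air.

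In the terminal arm C6 and C7, which join C5b on a membrane in the first steps of the attack complex, rose. C6 ran from 26.8 through 31.2 to 36.7 CPM in CNC rats and from 12.6 through 20.2 to 26.8 CPM in air rats; CNC rat 6, the lowest, stood above the highest air rat by less than 0.1 CPM. For C6 the log2 fold change was 0.63 ± 0.14 (SE; edgeR adjusted p = 0.00293). C7 ran from 924 through 946 to 1011 CPM in CNC rats and from 686 through 823 to 872 CPM in air rats, with a log2 fold change of 0.24 ± 0.05 (SE; edgeR adjusted p = 0.00324). C7 is known as a fibroblast product, and the fibroblast markers fell as given above. Their part in the C7 result was not tested. C6 and C7 are separated by 1 protein-coding gene, and the number of C6 counts per C7 count was 0.0329 ± 0.00423 in CNC and 0.0246 ± 0.00483 in air, with overlap (SD, n = 6 rats each; exact permutation p = 0.013, adjusted 0.0303). C8g, a lipocalin-type chain of C8, was not called (log2 fold change 0.15 ± 0.13 SE, edgeR adjusted p = 0.463).

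Among the receptors, Itgam and Itgb2, the chains of complement receptor 3 that takes up iC3b-coated particles, both rose. Itgam ran from 35.5 through 49.2 to 56.3 CPM in CNC rats and from 23.7 through 27.8 to 32.3 CPM in air rats, with no overlap. The log2 fold change of Itgam was 0.78 ± 0.10 (SE; edgeR adjusted p = 5.14e-05), and that of Itgb2 was 0.38 ± 0.07 (SE; edgeR adjusted p = 0.00152). Itgb2 also pairs with other alpha chains on leukocytes. The number of Itgam counts per Itgb2 count ran from 0.141 to 0.190 in CNC rats and from 0.111 to 0.131 in air rats (2-sided exact permutation test, p = 0.00216, the smallest it can give; 0.00606 adjusted). Itgam is a neutrophil and monocyte marker too, and the part of the risen neutrophil markers in its rise was not tested.

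Both receptors for the anaphylatoxin C5a rose. C5ar1, the signalling receptor, ran from 41.6 through 52.6 to 57.8 CPM in CNC rats and from 29.9 through 38.4 to 42.1 CPM in air rats, where the groups overlapped (log2 fold change 0.43 ± 0.09 SE, edgeR adjusted p = 0.00355). C5ar2, which couples poorly to G proteins, ran from 43.9 through 50.1 to 56.1 CPM in CNC rats and from 31.3 through 38.4 to 43.7 CPM in air rats, with no overlap (log2 fold change 0.40 ± 0.08 SE, edgeR adjusted p = 0.00135). These neighbouring genes had a count ratio of 1.00 ± 0.0607 in CNC and 1.00 ± 0.192 in air (SD, n = 6 rats each; exact permutation p = 0.874, adjusted 0.90). The C3a receptor gene C3ar1 was not called (log2 fold change 0.15, 95% interval -0.15 to 0.46; edgeR adjusted p = 0.493). Vsig4, a receptor for C3b on resident macrophages, had 66 counts over the CNC libraries and 68 over the air libraries, and was not called, with a wide 95% interval of -0.87 to 0.75 for the log2 fold change (edgeR adjusted p = 0.935).

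**Figure D4:**
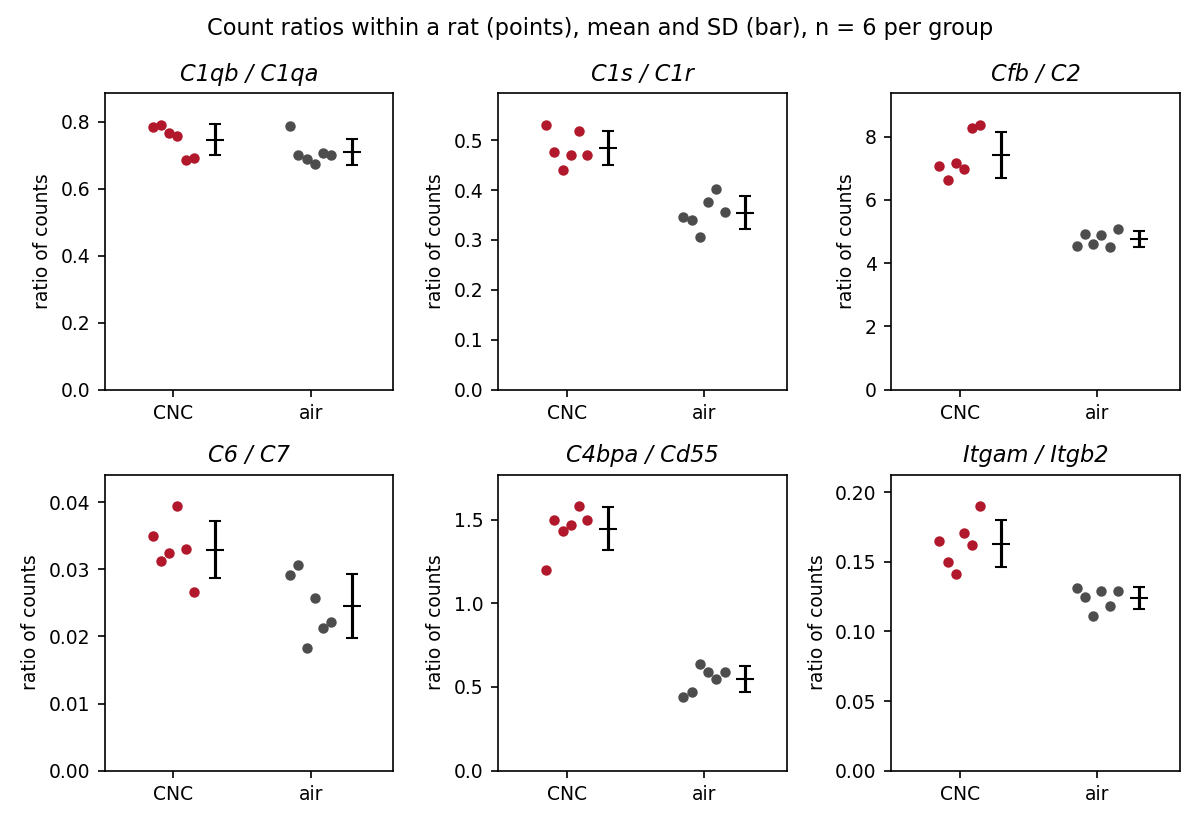
Ratio of the counts of a pair of complement genes within each rat (points, CNC left and air right) with mean and SD (bars, n = 6 rats each), each panel with its own y axis from 0. C1s to C1r, Cfb to C2, C4bpa to Cd55 and Itgam to Itgb2 do not overlap between the groups, while C1qb to C1qa and C6 to C7 do.

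Of the 9 regulators 4 rose and 1 fell, and the largest changes were rises of Cfi and C4bpa, both secreted into plasma. Cfi, the protease that cuts C3b and C4b, ran from 22.3 through 28.9 to 38.2 CPM in CNC rats and from 4.97 through 8.67 to 14.4 CPM in air rats, with no overlap. Its log2 fold change was 1.67 ± 0.22 (SE; edgeR adjusted p = 6.34e-05). Air rats varied widely in Cfi, with a coefficient of variation of 42.9%, and air rats 4 and 5, the ones high in heart muscle markers, were highest at 13.4 and 14.4 CPM. Leaving out the highest air rats raises the Cfi fold change by construction. Without them the Cfi log2 fold change was 2.11 ± 0.18 (SE; edgeR adjusted p = 6.25e-06). With heart muscle genes as a covariate it was 1.90 ± 0.12 (SE; edgeR adjusted p = 1.48e-07). With the circadian clock gene covariate described below it was 0.72 ± 0.39 (SE; edgeR adjusted p = 0.341). The part of heart muscle in the Cfi result was not tested. C4bpa, a chain of the C4b-binding protein and a cofactor of factor I, ran from 103 through 111 to 138 CPM in CNC rats and from 28.2 through 44.2 to 46.2 CPM in air rats, with no overlap. Its log2 fold change was 1.51 ± 0.11 (SE; edgeR adjusted p = 3.4e-07).

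Vtn, which encodes vitronectin, an adhesion protein that also keeps the attack complex out of membranes, was the regulator that fell. It ran from 60.5 through 64.1 to 68.4 CPM in CNC rats and from 78.7 through 90.3 to 95.7 CPM in air rats, with no overlap. On the log2 scale Vtn changed by -0.47 ± 0.05 (SE; edgeR adjusted p = 5.02e-06). Clu, which encodes clusterin, another secreted inhibitor of the attack complex, was not called (log2 fold change -0.03, 95% interval -0.11 to 0.05; edgeR adjusted p = 0.631). Serping1, the inhibitor of C1r, C1s and the MASPs, averaged 327 ± 18.3 CPM in CNC and 294 ± 15.6 CPM in air (SD, n = 6 rats each) and rose by 0.15 ± 0.04 (SE; edgeR adjusted p = 0.0181). The Serping1 call ended with library size alone as scaling, at a log2 fold change of 0.13 ± 0.05 (SE; edgeR adjusted p = 0.0518), and without CNC rats 3 and 6, at 0.11 ± 0.04 (SE; edgeR adjusted p = 0.0912).

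On membranes, Cd59, which blocks the last step of the attack complex, averaged 581 ± 18.4 CPM in CNC and 524 ± 30.6 CPM in air (SD, n = 6 rats each), a log2 fold change of 0.15 ± 0.04 (SE; edgeR adjusted p = 0.0138). Cd55, which speeds the decay of C3 convertases, had 0.11 (95% interval -0.02 to 0.25; edgeR adjusted p = 0.228), and Cd46, a factor I cofactor, had 0.04 (-0.20 to 0.29; edgeR adjusted p = 0.822). Cr1l, the rodent membrane regulator also called Crry, was the least variable complement gene, at 157 ± 3.42 CPM in CNC and 158 ± 3.34 CPM in air (SD, n = 6 rats each), and its 95% interval of -0.06 to 0.05 was the narrowest of the 33. C4bpa and Cd55 are separated by 1 protein-coding gene, and the number of C4bpa counts per Cd55 count ran from 1.20 to 1.58 in CNC rats and from 0.443 to 0.640 in air rats (2-sided exact permutation test, p = 0.00216, the smallest it can give; 0.00606 adjusted).

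**Figure D5:**
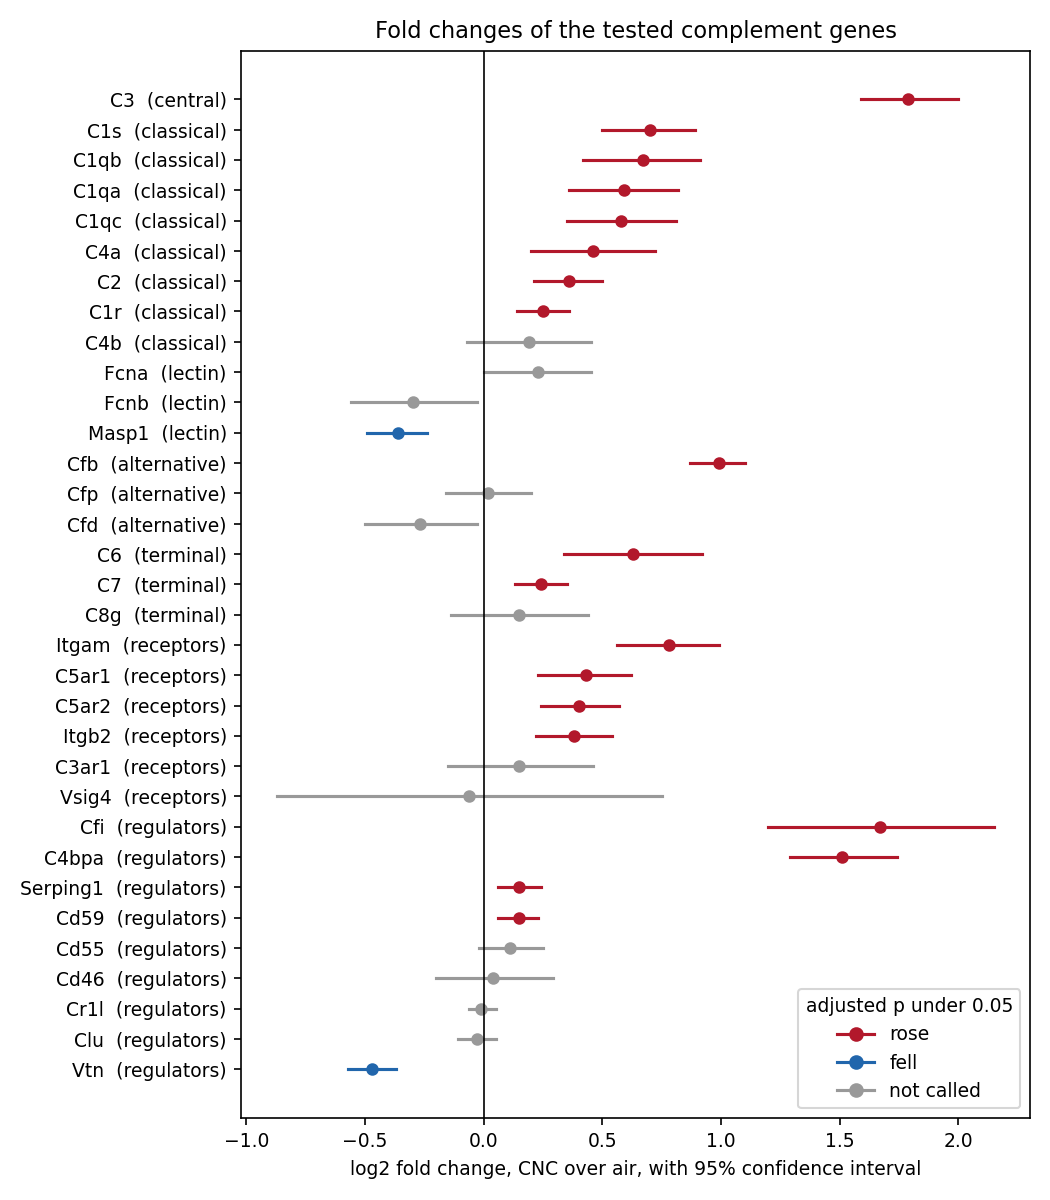
Log2 fold change of CNC over air (points) with 95% confidence intervals (lines) for the 33 tested complement genes, by arm, coloured by call at edgeR adjusted p under 0.05. C3, Cfi and C4bpa lie furthest right at 1.79, 1.67 and 1.51, and Vtn and Masp1 lie wholly left of 0 at -0.47 and -0.36.

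Each of the 21 calls held when any 1 of the 12 rats was left out. The first principal component of 15 circadian clock genes also did not overlap between the groups: it ran from -2.52 to -0.616 in CNC rats and from -0.393 to 2.89 in air rats. With this component as a covariate 5 of the 21 calls held, those of C3, Cfb, C5ar2, C4bpa and Vtn, and the standard error grew by a median factor of 2.17. No called gene changed direction. The lost calls were those of 7 classical genes, Masp1, C6 and C7, 3 receptors and 3 regulators (Cfi, Serping1 and Cd59), with edgeR adjusted p from 0.0844 to 0.972. Among these, the log2 fold change with the covariate was at least as large as without it for C2 (0.41 ± 0.15), C4a (0.76 ± 0.26), C6 (0.64 ± 0.30) and Masp1 (-0.41 ± 0.13), with larger SE, and was 0.64 ± 0.25 for C1qb. It was smaller for the other lost calls, among them C1s (0.46 ± 0.19), Itgam (0.53 ± 0.21), Cfi (0.72 ± 0.39), C1r (0.08 ± 0.10) and Serping1 (0.01 ± 0.09; SE throughout). The labels give no time of day for the dissections.

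Of 30 further complement genes, 18 were tested, and 8 rose and 2 fell, against 13.2% and 11.4% of all genes. The pattern-recognition protein Ptx3, which binds C1q, averaged 9.61 ± 0.938 CPM in CNC and 3.67 ± 0.276 CPM in air (SD, n = 6 rats each), a log2 fold change of 1.40 ± 0.09 (SE; edgeR adjusted p = 2.71e-07). Itgax, the alpha chain of complement receptor 4, rose by 0.73 ± 0.08 (SE; edgeR adjusted p = 1.57e-05), and C1qbp, a mitochondrial protein first found as a C1q binder, by 0.37 ± 0.05 (SE; edgeR adjusted p = 3.74e-05). Cd93, an endothelial and myeloid protein once called a C1q receptor, averaged 347 ± 15.6 CPM in CNC and 458 ± 52.7 CPM in air (SD, n = 6 rats each; log2 fold change -0.40, edgeR adjusted p = 0.000306). All 8 endothelial markers fell too, and their part in the Cd93 result was not tested. Chosen after its values were seen, C5, the source of C5a, rose by 0.49 (edgeR adjusted p = 0.00643). Of the 10 others in the table but under the filter, 5 had 0 counts in all libraries, which by counting error alone allows up to 3 counts in each. Some rows of the table may miss reads of their gene. Col1a2 had 0 counts over the CNC libraries and 1 over the air libraries, where Col1a1 had 21524 and 28350. Whether the 5 rows miss reads was not tested.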

How the data were processed

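RNA sequencing libraries of lung from 6 CNC and 6 air rats were analysed from the authors' deposited table of raw counts, given as unnormalized whole numbers for each gene symbol. Per the submitters' processing notes, the tools were HISAT2 2.1.0, HTSeq 0.11.2, Trimmomatic 0.35, SAMtools 1.8, bcl2fastq 2.19 and Cufflinks, without stated roles, and libraries were stranded and amplified over 12 PCR cycles per the labels' protocols. The name of the table holds Rnor6; the sources used here do not give the annotation or the strand setting, so overlapping genes and near-identical copies such as C4a and C4b are uncertain.

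Differential expression was fitted with edgeR 4.0.16 (R 4.3.3), using filterByExpr defaults (minimum count 10, minimum total 15; 15019 of 30045 symbols kept), TMM scaling, glmQLFit and glmQLFTest, and Benjamini-Hochberg adjustment over all genes tested with a threshold of 0.05. SE is the log2 fold change over the square root of F. CPM are TMM-scaled and compare rats, not genes, since they are not divided by length. The procedure was tested on simulated data. Libraries ranged from 8693259 to 16603697 counts; amplified reads are not independent molecules, so the limit that a count of 0 allows covers counting error only.

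Count ratios within a library were compared by 2-sided exact permutation over all 924 splits, for the 12 pairs of members at most 10 protein-coding genes apart in RefSeq's GRCr8 gene order (names and order alone) and for Itgam with Itgb2 and C4a with C4b, adjusted over the 14. All 34 symbols matched RefSeq, 1 of them through a synonym, and 22 had a promoter entry; motifs were searched on both strands.

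The members, lists and ratios were chosen with earlier results of these data known. Each arm's called members with the largest changes, at most 3, are given with their range over rats, and up to 4 called genes from the further list. Replicate numbers only name a rat, and labels do not say which rats shared a cage of 3. Alternatives were 3 other scalings, 2 other filters, DESeq2 1.42.0, voom from limma 3.58.1 (plain and quality-weighted), the robust edgeR fit, covariates (1 surrogate variable from sva 3.50.0, clock genes, 11 heart muscle genes), other thresholds and leaving out rats. Figures were drawn with matplotlib 3.10.9.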

Additional observations from a re-analysis of the deposited data

Results flagged for a closer look

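Over 66 groups of 6 rats (33 complement genes in CNC and in air), 4 held a rat far from the others by Dixon's criterion, where chance flags about 1 in 20 groups. CNC rat 6 had 125 CPM of C4b, where the other CNC rats ran from 80.4 to 91.5. CNC rat 4 had 51.9 CPM of Masp1, where the other CNC rats ran from 56.1 to 58.2, and air rat 3 had 59.0 CPM, where the other air rats ran from 71.6 to 78.5. Air rat 4 had 7.79 CPM of Cd46, where the other air rats ran from 5.70 to 6.47. The Masp1 call held without either of these rats.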

How the results depend on the processing

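No paired analysis was possible because the labels give no number shared by CNC and air rats. The counts of complement genes called were 19 higher and 2 lower, and ran from 19 to 20 higher and 2 to 3 lower when 1 rat was left out. They were 4 and 1 with the clock gene covariate, 16 and 2 with adjusted p under 0.01, and 9 and 0 when a change of at least 1.5-fold was also asked. Over all genes 1981 were higher and 1710 lower; with the clock covariate 378 and 198, with adjusted p under 0.01 1244 and 902, and with at least 1.5-fold 426 and 116. Of the 21 called genes 19 held in every alternative but the clock covariate, the exceptions being C4a and Serping1 as given above. Of the 12 not called, 5 changed the sign of a log2 fold change without being called: C4b (-0.06) and Cd46 (-0.41) with the clock covariate; Cfp with library size alone (0.00), the clock (-0.20) and heart muscle (-0.01) covariates, and without CNC rat 4 or air rat 6 (-0.02 and -0.03; -0.03 to 0.08 over all fits without 1 rat); Cr1l with the clock covariate (0.01) and without CNC rats 1 or 3 or air rats 1 or 5 in turn (each 0.00); and Vsig4 with limma-voom (0.01, and 0.02 with quality weights), without air rats 4 and 5 (0.06), without CNC rats 3 and 6 (0.11) and without CNC rats 5 or 6 or air rats 1 or 5 in turn (0.04 to 0.23, with 0.06 and 0.09 for the CNC rats; -0.23 to 0.23 over all fits without 1 rat). The cause was not tested. Counts were few for Vsig4 (66 over the CNC libraries and 68 over the air libraries) and Masp2 (4 and 11), which limits their precision.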

Other observations

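Of the further complement genes that rose, those outside the ones named above were Cpb2, a carboxypeptidase that inactivates C3a and C5a (0.606 to 2.79 CPM in CNC and 0.216 to 1.04 CPM in air; log2 fold change 1.84 ± 0.39 SE), C4bpb, the beta chain of C4b-binding protein (0.993 to 1.99 CPM in CNC and 0.167 to 0.719 CPM in air; log2 fold change 1.39 ± 0.29 SE), Cpn1, the catalytic chain of another such carboxypeptidase (log2 fold change 0.19), and Lrp1, an endocytic receptor (0.14). The fold change of Cpb2 was as large as that of C3, at 133 counts over the CNC libraries and 35 over the air libraries. The edgeR adjusted p was 0.00255 for Cpb2, 0.00232 for C4bpb, 0.0446 for Cpn1 and 0.039 for Lrp1. Thbd, endothelial thrombomodulin, fell (log2 fold change -0.22, edgeR adjusted p = 0.0102). The coefficient of variation between rats was lowest for Cr1l, at 2.18% in CNC and 2.12% in air, and C1r, C7, Cd59 and Masp1 varied by 3.47, 3.53, 3.17 and 4.1% in CNC and by 9.01, 8.62, 5.83 and 9.72% in air.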
